A study of Homo sapiens with 8 samples.

Results

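The 10 genes described here are the Notch receptors NOTCH1, NOTCH2 and NOTCH3, the ligands JAG1 and JAG2, the DNA-binding protein RBPJ, and the target genes HES1, HEY1, HES4 and NRARP. They were taken by gene symbol, not by a threshold on measured values, from tables that list 23368 genes, and all 10 symbols were present. The list itself was drawn up with earlier results of these data known. RNA was sequenced from U87MG, an established human glioblastoma cell line, in 4 groups of 2 libraries: cells labelled as receiving no treatment, and cells exposed to enzalutamide, a drug that blocks the androgen receptor, for 4, 24 or 48 h. The labels name no dose, no vehicle and no time point for the untreated cells, and whether a group's 2 libraries are separate cultures is not stated, so p-values measure only the spread between these libraries. The groups share their cell line and growth medium, and the labels state for every library that the cells were harvested after differentiation without saying which kind. U87MG is a single long-established line, so the libraries describe that line alone.

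Notch signalling passes between touching cells. A Jagged or Delta ligand on one cell pulls on a Notch receptor on its neighbour, an ADAM protease and then the gamma-secretase complex cut the receptor, and the freed intracellular part enters the nucleus. There it binds RBPJ and a Mastermind coactivator and switches on target genes, among them the transcriptional repressors of the HES and HEY families and NRARP, which promotes breakdown of the active complex. In glioblastoma the pathway is known for its part in keeping tumour cells in a stem-like state, and HES1 is also known to be switched on by inputs other than Notch.

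The libraries held 24620833 to 37162565 counts. Levels are given in CPM, counts divided by the library total and brought to a common library size, after TMM scaling, which corrects those totals for differences in composition; the factors were 0.870 and 0.899 at 48 h and 1.02 to 1.08 elsewhere. After a filter on low counts 14448 genes were tested, among them 8 of the 10 members, and a gene was called changed at an adjusted p under 0.05 in edgeR's quasi-likelihood test with Benjamini-Hochberg adjustment over all genes tested. The 6 listed markers of this line (VIM, CD44, FN1, TGFBI, CHI3L1 and NES) summed to 15235 to 29612 CPM in each library, and the 3 genes known to be deleted in it (CDKN2A, CDKN2B and MTAP) to at most 0.0588 CPM. Of 7 glial lineage markers, 5 stayed under 1 CPM in every library, GFAP among them. The 4 epithelial markers summed to at most 0.403 CPM, and of the immune, endothelial and oligodendrocyte markers 1 each reached 1 CPM in any library, CD68 (with 566.9 to 1049 CPM summed over the 4 immune markers), KDR and MBP. Of 4 neuronal markers SNAP25 and SYT1 did, with a summed level of 21.2 to 45.9 CPM. In bulk RNA, fewer cells of one kind and less RNA per cell cannot be told apart.

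HES1 set itself apart from the other members at 48 h. Its level was 1.93 and 2.36 CPM in the untreated libraries, 4.12 and 5.94 CPM at 4 h, 3.78 and 2.91 CPM at 24 h, and 58.3 and 52.3 CPM at 48 h. Both 48 h libraries lay far above all 6 others, and the libraries of every treated group lay above both untreated ones. HES1, a basic helix-loop-helix repressor and the classic Notch target, rose 2.38-fold at 4 h (log2 change 1.25 ± 0.21, SE, adjusted p = 0.00123, edgeR). At 24 h its change from control was 0.65 ± 0.22 with an adjusted p of 0.0529 in edgeR, which missed the threshold. It passed when either 48 h library or either 4 h library was left out of the fit, with an adjusted p of 0.0247 to 0.0374 and the same log2 change of 0.65. At 48 h HES1 was 25.8-fold above control (4.69 ± 0.18, adjusted p = 4.77e-09, edgeR), the fourth highest change among the 14448 genes tested (rank 4).

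The fall of HES1 between 4 and 24 h was smaller and less certain than its later rise. From 4 to 24 h it fell by 0.60 ± 0.19 on the log2 scale (adjusted p = 0.0280, edgeR). That call was lost without the second 4 h library, where the change was -0.29, and without the second 24 h library, where it was -0.43. Between 24 and 48 h it rose 16.5-fold (4.04 ± 0.17, adjusted p = 9.0e-09, edgeR).

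**Figure D1:**
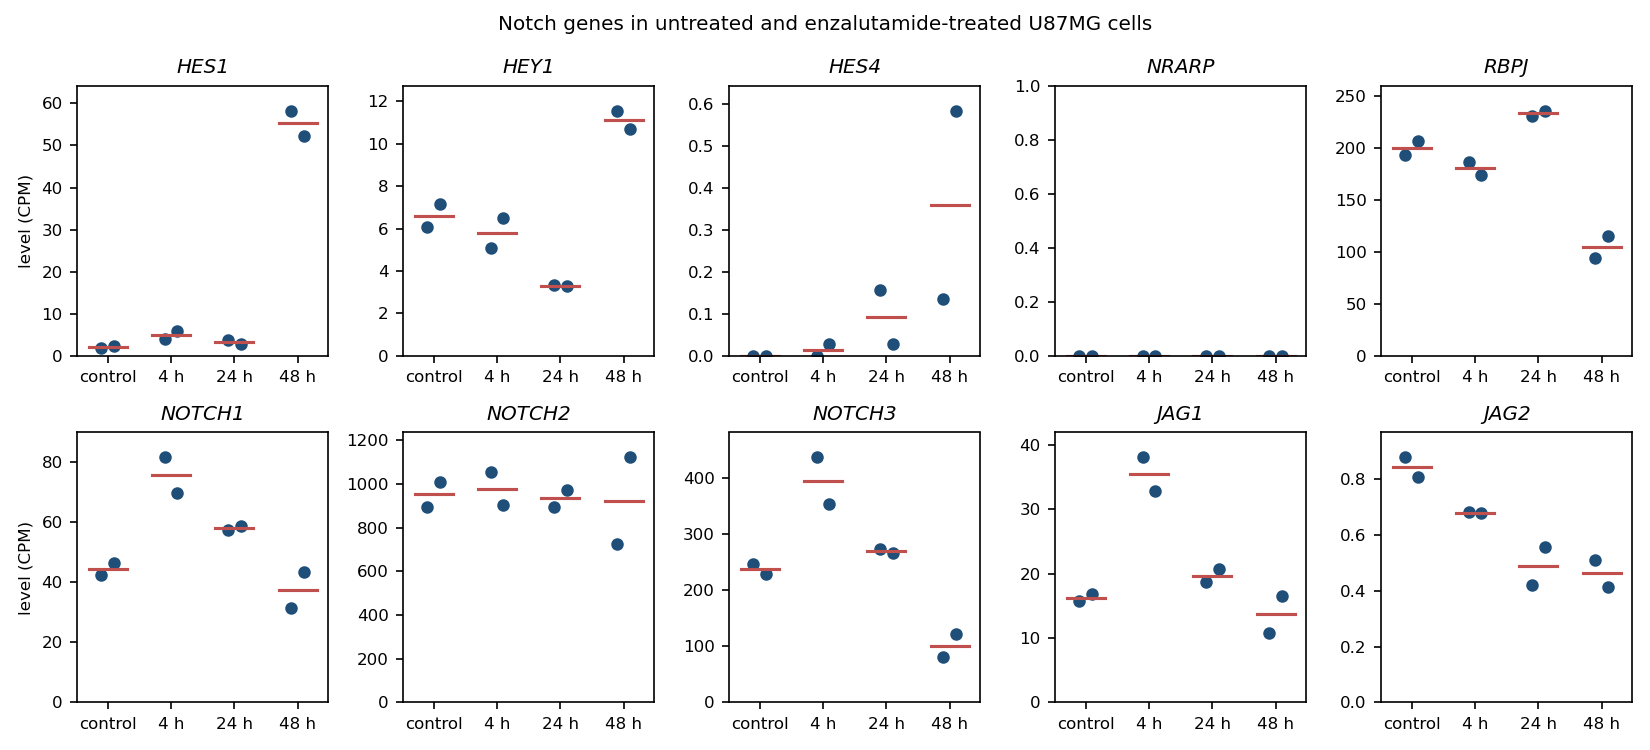
Level of each of the 10 genes (y axes, CPM after TMM scaling, each panel on its own scale from 0) in untreated cells and after 4, 24 and 48 h of enzalutamide (x axes). Each point is 1 library; the HES1 panel runs from 1.93 to 58.3 CPM and the NRARP panel holds only zeros.

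HEY1 shared the direction of HES1 at 48 h but not at 24 h. HEY1, a relative of HES1 that also represses transcription, measured 6.06 and 7.16 CPM untreated, 5.08 and 6.50 CPM at 4 h, 3.33 and 3.29 CPM at 24 h, and 11.6 and 10.7 CPM at 48 h. The 24 h libraries were below all 6 others and the 48 h libraries above them, while the 4 h libraries overlapped the untreated ones. At 4 h its change was -0.18 ± 0.16 (adjusted p = 0.434, edgeR), which was not called. It was 1.99-fold lower at 24 h (-1.0 ± 0.17, adjusted p = 0.00166, edgeR) and 1.68-fold higher at 48 h (0.75 ± 0.15, adjusted p = 0.00101, edgeR). From 24 to 48 h it rose 3.36-fold (adjusted p = 2.7e-06, edgeR). These calls for HEY1 held when any 1 library was left out.

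HES4 and NRARP gave little or no signal. HES4, a human HES gene with no mouse counterpart, had 0 counts in both untreated libraries and 0 and 1 at 4 h. At 24 h it had 6 and 1, and at 48 h 4 and 17. Its 2 libraries at 48 h reached 0.136 and 0.584 CPM, above the untreated ones, but it did not pass the filter. With no filter on low counts its adjusted p in edgeR was 0.604 at 4 h, 0.139 at 24 h and 0.00200 at 48 h, where the call rests on 21 counts in all. NRARP had 0 counts in all 8 libraries, which allows at most 0.0788 to 0.120 CPM per library by counting error alone, taking 3 counts as the limit. A gene at 0 in every library of this depth may also be one that the counting did not cover, and the sources used here do not say.

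The 3 members with an RBPJ core motif in the 250 bases before an annotated start are shown next, since RBPJ is known to bind this motif. Promoter windows from RefSeq (GRCh38.p14, a build other than the hg19 and GRCh37 that the submitters' processing notes name) were found for 9 of the 10 members, HEY1 having no entry, in 13 windows. Both strands were searched for 2 motifs. The RBPJ core is GTGGGAA, which reads as TTCCCAC on the opposite strand. The N box, a site that HES proteins bind, is CACNAG, which reads as CTNGTG on the opposite strand. Capitals mark the RBPJ core, and each run is written 5′ to 3′ along the gene, ending at the last base before the start. The windows are chr3:194135898-194136147 on the plus strand for HES1, chr1:1000098-1000347 on the minus strand for HES4 and chr4:26319496-26319745 on the plus strand for 1 of the 5 starts of RBPJ.
HES1: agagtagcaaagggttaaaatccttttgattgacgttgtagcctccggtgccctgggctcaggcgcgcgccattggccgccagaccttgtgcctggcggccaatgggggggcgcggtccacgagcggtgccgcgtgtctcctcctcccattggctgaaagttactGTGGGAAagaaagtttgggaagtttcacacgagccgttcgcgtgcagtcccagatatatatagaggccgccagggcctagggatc
HES4: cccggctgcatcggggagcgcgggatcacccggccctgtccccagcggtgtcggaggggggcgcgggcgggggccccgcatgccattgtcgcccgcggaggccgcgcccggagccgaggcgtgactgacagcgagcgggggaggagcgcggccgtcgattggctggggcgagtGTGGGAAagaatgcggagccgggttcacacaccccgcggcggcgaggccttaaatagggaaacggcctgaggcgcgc
RBPJ: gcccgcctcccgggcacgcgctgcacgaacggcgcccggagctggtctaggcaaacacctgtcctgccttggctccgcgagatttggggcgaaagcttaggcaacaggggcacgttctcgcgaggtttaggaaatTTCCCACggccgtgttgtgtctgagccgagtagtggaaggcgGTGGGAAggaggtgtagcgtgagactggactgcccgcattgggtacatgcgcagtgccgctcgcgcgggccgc

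In the HES1 window the core stood 85 to 79 bases before the start, and in the HES4 window 77 to 71 bases before it. The core lies in the same 12 bases in both, tGTGGGAAagaa, a run found in 6 of 35116 RefSeq windows of this length. The RBPJ window held it on both strands, at 115 to 109 bases and at 73 to 67 bases before the start. HES1 also held 3 N boxes, at 165 to 160, 132 to 127 and 58 to 53 bases before the start, and HES4 held none. Of all windows, 1906 (5.43%) held the RBPJ core and 11251 (32%) an N box, so that the N box in particular is common. None of the motifs overlapped another in these 3 windows. These matches describe letters in the reference and are not measured binding.

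At 48 h none of the 3 receptors was called higher, while NOTCH1 and NOTCH3 rose beside HES1 at 4 h. NOTCH1 measured 42.2 and 46.5 CPM untreated, 81.6 and 69.5 CPM at 4 h, 57.3 and 58.8 CPM at 24 h, and 31.3 and 43.4 CPM at 48 h. Its 4 h libraries were the highest of the 8, its 24 h libraries were above the untreated ones, and its 48 h libraries overlapped them. NOTCH1 rose 1.70-fold at 4 h (0.77 ± 0.13, adjusted p = 0.00135, edgeR). The changes of 0.39 ± 0.13 at 24 h (adjusted p = 0.0537) and -0.25 ± 0.13 at 48 h (adjusted p = 0.120) were not called by edgeR. The 24 h change stayed at 0.39 without either 48 h library and was called in both fits, but not in the other fits with 1 library left out. All groups share 1 estimate of the spread, so its call can move. It passed with DESeq2 (0.36, adjusted p = 0.0332) and in edgeR with the groups compared only (0.37, adjusted p = 2.7e-04). In edgeR it also passed with no filter (0.39, adjusted p = 0.0226) and with the replicate block (0.39, adjusted p = 0.0358). The 48 h change was -0.49 and called lower without the second 48 h library, and ran up to -0.03 with 1 library left out.

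NOTCH3 moved the furthest of the receptors and against HES1 at 48 h. It measured 246 and 229 CPM untreated, 438 and 353 CPM at 4 h, 274 and 266 CPM at 24 h, and 80.6 and 122 CPM at 48 h. The 4 h libraries were the highest and the 48 h libraries the lowest, with no overlap between those groups and any other. NOTCH3, a receptor best known from vascular smooth muscle, rose 1.66-fold at 4 h (0.73 ± 0.15, adjusted p = 0.00446, edgeR). Without the first 4 h library this was 0.57 with an adjusted p of 0.0545. At 48 h it was 2.35-fold lower than control (-1.23 ± 0.16, adjusted p = 3.2e-05, edgeR), and that call held when any 1 library was left out.

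NOTCH2 was the most abundant receptor and was not called in any comparison. It measured 897 and 1010 CPM untreated, 1054 and 902 CPM at 4 h, 895 and 973 CPM at 24 h, and 724 and 1124 CPM at 48 h. The groups overlapped throughout, and the lowest and the highest of the 8 values were the 2 libraries of the 48 h group. Its changes from control were 0.04 at 4 h (adjusted p = 0.890), -0.03 at 24 h (adjusted p = 0.924) and -0.05 at 48 h (adjusted p = 0.812) in edgeR, each with an SE of 0.16. At 48 h the change was 0.24 (adjusted p = 0.0227) without the first 48 h library and -0.39 (adjusted p = 0.00115) without the second, so its direction there is set by 1 library. NOTCH2 has a near-identical partial copy, NOTCH2NL, whose counts were 5.42% to 11.7% of those of NOTCH2, highest in the first 48 h library, and how reads shared by both were counted is not given in the sources used here.

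Per kilobase of merged exon, NOTCH2 took the largest share of the 3 receptors in every library. It made up 62.9% and 66.6% of their sum in untreated cells and 52.5% and 53.8% at 4 h. By 24 h this was 59.6% and 62.1%, and by 48 h 78.0% and 78.9%. The share of NOTCH3 was 32.0% and 28.1% untreated and 40.5% and 39.1% at 4 h. It was 33.8% and 31.5% by 24 h and ended at 16.1% and 15.9%. For both genes the 4 h and the 48 h libraries stood on opposite sides of the untreated ones, with no overlap. NOTCH1 made up 5.12% to 7.16% in all libraries. These shares compare the receptors within a library and do not depend on how libraries were scaled, and no test was run on them. Their size does depend on the merged exon lengths, which may exceed those of the transcripts present.

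**Figure D2:**
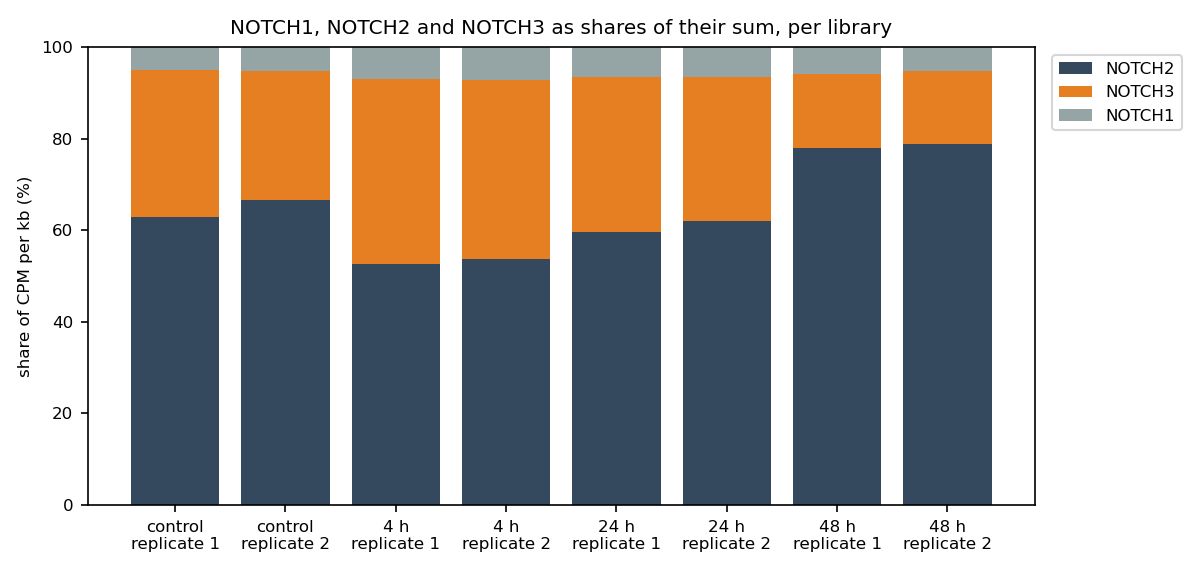
Share of NOTCH1, NOTCH2 and NOTCH3 in their summed level per kilobase of merged exon (y axis, %) in each of the 8 libraries (x axis). The NOTCH3 part is largest in the 4 h libraries (40.5% and 39.1%) and smallest in the 48 h libraries (16.1% and 15.9%).

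Of the ligands, JAG1 rose early and JAG2 stayed near the limit of detection. JAG1, a Jagged ligand, measured 15.7 and 16.8 CPM untreated, 38.1 and 32.8 CPM at 4 h, 18.6 and 20.7 CPM at 24 h, and 10.8 and 16.6 CPM at 48 h. The 4 h libraries were well above all 6 others, and the 48 h libraries overlapped the untreated ones. JAG1 rose 2.18-fold at 4 h (1.12 ± 0.16, adjusted p = 4.4e-04, edgeR). Its changes of 0.27 ± 0.16 at 24 h (adjusted p = 0.262) and -0.25 ± 0.17 at 48 h (adjusted p = 0.208) were not called by edgeR. The 24 h change was called without the first or the second 48 h library (0.28, adjusted p = 0.0402 and 0.0412), and the 48 h change was -0.59 (adjusted p = 0.00115) without the second 48 h library but 0.03 (adjusted p = 0.831) without the first.

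JAG2, the other Jagged ligand, had 31 and 28 counts untreated and 17 and 23 at 4 h. By 24 h these were 16 and 19, and by 48 h 15 and 12. In CPM this is 0.878 and 0.805, 0.680 and 0.676, 0.420 and 0.558, and 0.510 and 0.412, with every treated library below both untreated ones. It was called lower at 48 h (-0.86 ± 0.35, adjusted p = 0.0449, edgeR), but the call was lost when any 1 of the 8 libraries was left out, with an adjusted p of 0.0587 to 0.201. Its changes of -0.31 at 4 h (adjusted p = 0.517) and -0.79 at 24 h (adjusted p = 0.112) were not called by edgeR.

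RBPJ, through which all Notch receptors act on DNA, was lower at 48 h, when HES1 was highest. It measured 194 and 207 CPM untreated, 187 and 174 CPM at 4 h, 231 and 236 CPM at 24 h, and 94.6 and 116 CPM at 48 h. The groups did not overlap: the 48 h libraries were the lowest, then those at 4 h, then the untreated ones, and the 24 h libraries were the highest. The changes of -0.15 ± 0.09 at 4 h (adjusted p = 0.226) and 0.22 ± 0.09 at 24 h (adjusted p = 0.0930) were not called by edgeR, although each was called without the first or the second 48 h library. Those adjusted p-values were 0.0389 and 0.0383 for -0.15 at 4 h, and 0.00497 and 0.00483 for 0.22 at 24 h. At 48 h RBPJ was 1.91-fold lower (-0.93 ± 0.09, adjusted p = 3.6e-06, edgeR), in every fit that left out 1 library as well.

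**Figure D3:**
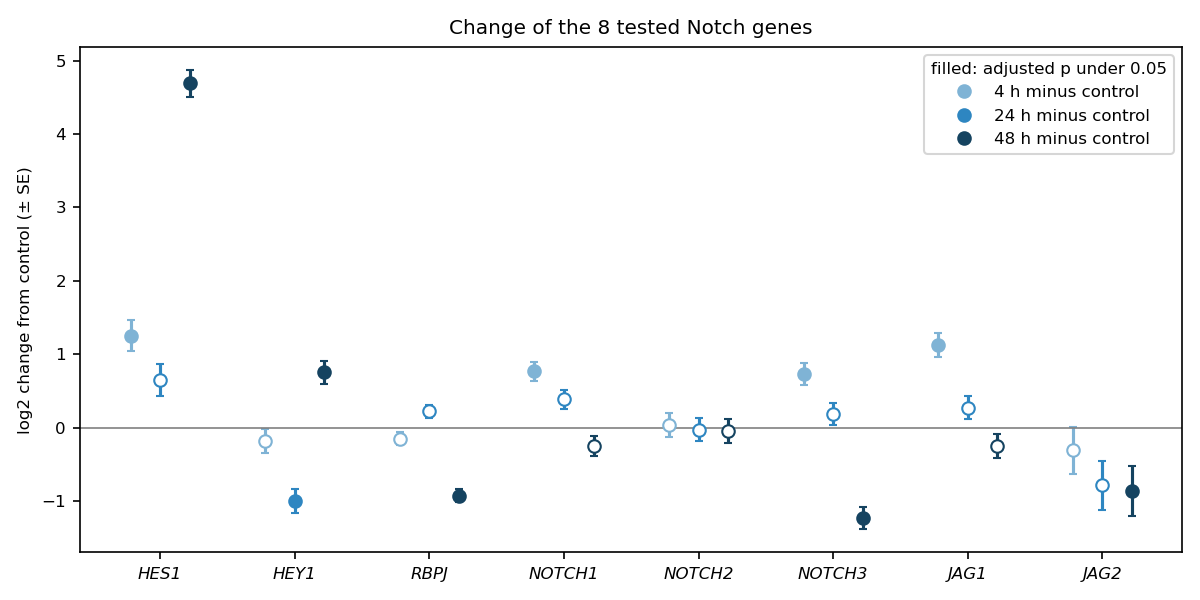
Log2 change from untreated cells (y axis, with bars of 1 SE) for the 8 tested genes (x axis) at 4, 24 and 48 h. Filled points have an adjusted p under 0.05; HES1 at 48 h stands at 4.69, and NOTCH3, RBPJ and JAG2 lie below 0 at that time.

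Counted together, a larger share of the members than of all genes was higher at 4 h. The list was drawn up with earlier results of these data known, so that excess is a description only. The counts at 24 and 48 h lay near the background, and no list test was run. At 4 h 4 of the 8 tested were higher and 0 lower, where 15.0% of all genes tested were higher and 13.6% lower. At 24 h 0 were higher and 1 lower, against 12.9% and 9.39% of all genes. At 48 h 2 were higher and 3 lower, against 33.3% and 33.5%, so that a call at 48 h was common among all genes. The median log2 change of the 8 was 0.39 at 4 h, 0.20 at 24 h and -0.25 at 48 h, beside 0.00, 0.01 and -0.02 over all genes tested. The 3 comparisons share their untreated libraries.

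Scaling by library totals alone moved the median of all genes at 48 h from -0.02 to -0.30, and the calls at 48 h from 4814 higher and 4847 lower to 2742 and 6729. The split at 4 h went from 2163 higher and 1964 lower to 1651 and 2667, and at 24 h from 1866 and 1356 to 1359 and 1920. Under that scaling HES1 and HEY1 were still higher at 48 h, and NOTCH3, RBPJ and JAG2 still lower. NOTCH1 (-0.52, adjusted p = 0.00716, edgeR) and JAG1 (-0.53, adjusted p = 0.0225, edgeR) were then called lower as well.

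Between successive times most members were called, and calls were common among all genes as well. From 4 to 24 h 1 of the 8 tested rose, RBPJ (0.37, adjusted p = 0.00568, edgeR), and 5 fell, where 21.2% of all genes rose and 20.3% fell. Besides HES1, those that fell were HEY1 by 0.82, JAG1 by 0.85, NOTCH3 by 0.55 and NOTCH1 by 0.38 on the log2 scale, with adjusted p-values of 0.00280, 0.00143, 0.0132 and 0.0354 in edgeR. The calls for HEY1 and JAG1 held without any 1 library. That for NOTCH1 was lost without either 24 h library (-0.36 and -0.39), the first 4 h library (-0.26) or either control (-0.38 each), and that for NOTCH3 without either 24 h library (-0.57 and -0.53) or the first 4 h library (-0.39). RBPJ was not called without the second 4 h library (0.32, adjusted p = 0.0641).

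From 24 to 48 h 2 rose, HES1 and HEY1, and 4 fell, where 31.5% of all genes rose and 35.3% fell. NOTCH3 fell by 1.41, RBPJ by 1.15, NOTCH1 by 0.64 and JAG1 by 0.52 on the log2 scale, with adjusted p-values of 1.0e-05, 6.8e-07, 0.00124 and 0.0158 in edgeR. The JAG1 call was lost without the second 24 h library (-0.44) and without the first 48 h library (-0.24). NOTCH2 was not called in this comparison with all libraries, but it was 0.27 (adjusted p = 0.0130) without the first 48 h library and -0.36 (adjusted p = 0.00195) without the second.

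Whether HES1 moved with each other member was tested directly on the log2 ratio of the 2 genes within each library, which scaling between libraries barely touches. HES1 enters every ratio, so limma's pooled spread is close to the spread of HES1 alone, and each ratio's own spread was used as a second estimate, added after the data were seen. A member is called different from HES1 here only where both gave an adjusted p under 0.05 over all genes. At 48 h the ratio of HES1 to all 7 other tested members rose. The difference was least against HEY1, at 3.91 (95% interval 3.52 to 4.30), and greatest against NOTCH3, at 5.92 (4.71 to 7.12). Against RBPJ it was 5.59 (4.72 to 6.47), against JAG2 5.45 (4.47 to 6.43), against JAG1 4.94 (3.75 to 6.12), against NOTCH1 4.92 (3.87 to 5.97) and against NOTCH2 4.73 (3.56 to 5.91). At that time HES1 also differed from 14445 of 14447 other genes with the pooled spread and 14440 with the own spread, which rounds to 100% for both, so a difference from HES1 at 48 h is nothing particular to the members.

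At 4 h the rise of HES1 exceeded the change of 3 of the 7 other tested members by both spread estimates. No test set the members that rose against those that did not. HES1 rose more than HEY1 by 1.39 (1.00 to 1.78), more than JAG2 by 1.48 (0.50 to 2.46) and more than RBPJ by 1.34 (0.47 to 2.22), with own-spread adjusted p-values of 0.0255, 0.0278 and 0.0273 in limma. For NOTCH2 the difference was 1.16 (-0.02 to 2.33), which passed with the pooled spread (adjusted p = 0.00114) and not with its own (0.0655). It did not pass with the pooled spread without the second 4 h library either (0.78, adjusted p = 0.0620). Across all genes, 90.5% differed from HES1 at 4 h with the pooled spread and 74.7% with the own spread.

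Against the 3 members already called higher at 4 h in these same libraries, no difference from HES1 was detectable, with wide intervals. It was 0.07 against JAG1 (-1.11 to 1.26), 0.43 against NOTCH1 (-0.62 to 1.48) and 0.46 against NOTCH3 (-0.74 to 1.67). The 2 libraries of the 4 h group disagree on HES1 itself, at 4.12 and 5.94 CPM. Without the first of them, HES1 rose more than NOTCH1 by 0.80 (adjusted p = 0.0412) and more than NOTCH3 by 0.88 (adjusted p = 0.0256) in limma with the pooled spread. Without the second, the difference from JAG1 was -0.30 (adjusted p = 0.469).

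At 24 h the difference from HES1 was 1.60 for HEY1 (1.21 to 1.99) and 1.35 for JAG2 (0.37 to 2.33). These passed with the pooled spread, as did 18.2% of all genes, but not with the own spread, with which 1 gene in all (0.00692%) passed. The intervals for the other 5 members at 24 h all included 0.

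**Figure D4:**
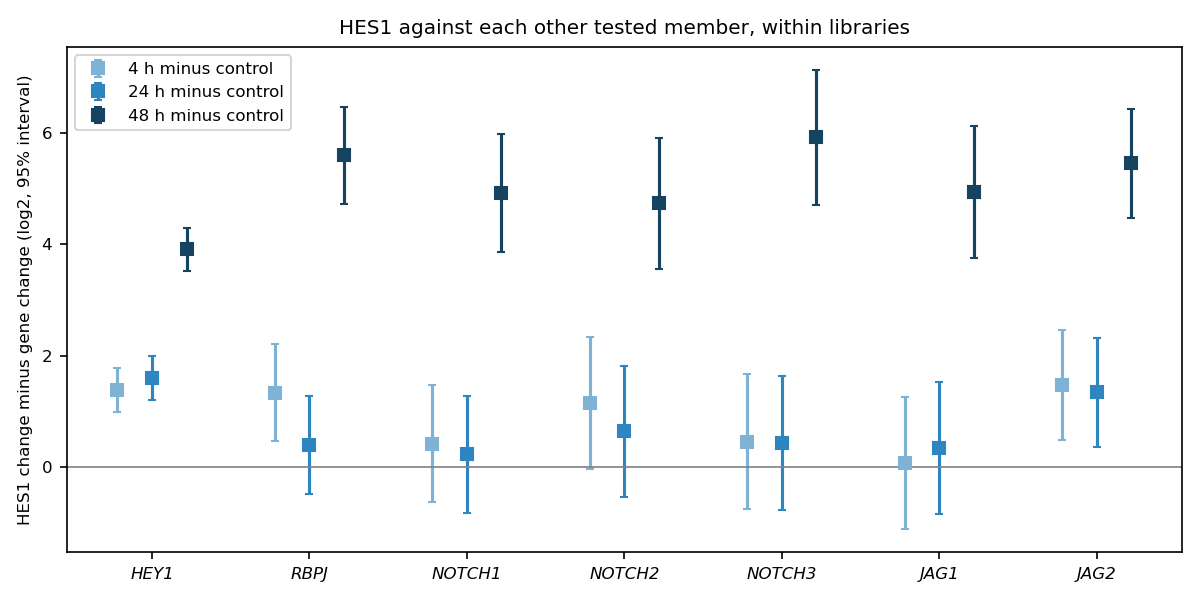
Log2 change of HES1 minus that of each other tested member within libraries (y axis, with 95% intervals from each ratio's own spread) at 4, 24 and 48 h. All 7 intervals at 48 h lie above 3, while at 4 h those of JAG1, NOTCH1, NOTCH2 and NOTCH3 include 0.

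Levels of the members can be compared with each other only per length. The length used merges all annotated exons of a gene and may exceed that of the transcripts present, so the order depends on it. In untreated cells NOTCH2 stood highest at 59.3 ± 4.95 CPM per kilobase (SD, n = 2), followed by RBPJ at 30.8 ± 1.45, NOTCH3 at 27.4 ± 1.36, NOTCH1 at 4.77 ± 0.324, JAG1 at 2.74 ± 0.131, HEY1 at 2.56 ± 0.301, HES1 at 1.36 ± 0.194 and JAG2 at 0.144 ± 0.009. JAG1 and HEY1 differed by less than their spread, and all other neighbours in that order did not overlap. At 48 h HES1 stood second, at 35.1 ± 2.66 CPM per kilobase, below NOTCH2 at 57.5 ± 17.6 and above RBPJ at 16.2 ± 2.29 and NOTCH3 at 11.7 ± 3.36. HEY1 at 4.32 ± 0.241, NOTCH1 at 4.02 ± 0.923 and JAG1 at 2.30 ± 0.692 came next. The libraries of RBPJ and NOTCH3 did not overlap at 48 h, and those of HEY1 and NOTCH1 did.

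The genes whose 3 changes from control lay closest to those of HES1 were DDIT3, ATF3, GPRC5B, PPP1R15A, HEATR8-TTC4 and GDF15, none of them a member. Closeness was the root mean square of the differences in log2 change over the 3 times, and it was 0.577 for both DDIT3 and ATF3. The genes compared were the 11027 whose mean CPM over all libraries had a log2 of 2 or more. DDIT3, a transcription factor of the endoplasmic reticulum stress response, measured 72.8 and 59.9 CPM untreated, 91.3 and 80.3 CPM at 4 h, 82.2 and 88.7 CPM at 24 h, and 1418 and 1223 CPM at 48 h. ATF3, a stress-induced transcription factor, measured 26.6 and 27.6, 47.0 and 45.5, 29.5 and 32.7, and 424 and 403 CPM in the same order. GPRC5B, an orphan receptor, went from 0.878 and 0.834 CPM untreated to 13.2 and 14.9 CPM at 48 h. Before 48 h its libraries held 0.683 to 1.32 CPM, and those of HEATR8-TTC4 1.96 to 4.94 CPM. These 2 genes passed the limit on mean CPM only through their 48 h libraries. Among the members HEY1 was nearest, with a distance of 2.60 at place 3115. All 3 changes share the untreated libraries and the 48 h change dominates the distance, so the order is a description only.

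The other genes of the pathway were taken from a list of 61, of which 51 were tested. At 4 h 7 were higher and 9 lower, at 24 h 7 and 6, and at 48 h 14 and 24, with median changes of 0.06, 0.04 and -0.32. The shares over all genes, given above, were 15.0% higher and 13.6% lower at 4 h. They were 12.9% and 9.39% for the 24 h libraries and 33.3% and 33.5% for the 48 h libraries, so the counts at 4 and 24 h lie near the background. Scaling by library totals alone turned the 48 h count to 8 higher and 31 lower, the 24 h count to 3 and 9 and the 4 h count to 5 and 11. Under that scaling all genes gave 2742 higher and 6729 lower at 48 h. The counts by class below rest on few genes and are not read as results about a class.

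Of the remaining HES and HEY genes 2 of the 3 tested were higher at 48 h, where 33.3% of all genes were. HES7, known from the segmentation clock, measured 0.822 and 0.805 CPM untreated and 3.37 and 1.89 CPM at 48 h, 3.22-fold higher (1.69 ± 0.33, adjusted p = 7.5e-04, edgeR). HES6, which counteracts HES1 in neural precursors, was 0.38 ± 0.14 higher at 48 h (adjusted p = 0.0278, edgeR), a call lost without the first 48 h library (0.17) or either untreated one (0.33 and 0.44) and under scaling by library totals (0.10). HEY2 was not called at any time, and HES2, HES3, HES5 and HEYL did not pass the filter. HES5, a common Notch target in neural cells, had 0 counts in all libraries. The remaining receptor NOTCH4 (4.49 to 6.24 CPM) and the ligand DLL1 (0.034 to 0.676 CPM) were not called at any time, and DLL3, DLL4, DLK1 and DLK2 did not pass the filter.

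The protease class, made up of ADAM proteases, gamma-secretase subunits and FURIN, split in direction at 48 h, with 4 of 8 higher and 4 lower. Of all genes, 33.3% were higher and 33.5% lower. Under scaling by library totals this class gave 2 and 4. Of the gamma-secretase subunits, NCSTN was 0.62, APH1A 0.50, PSENEN 0.38 and PSEN2 0.22 higher, although the change of PSEN2 was -0.06 and that of PSENEN 0.099 under scaling by library totals, neither of them called. APH1B, a subunit that can stand in for APH1A, measured 35.9 and 37.3 CPM untreated and 11.5 and 10.2 CPM at 48 h, a change of -1.76 ± 0.10. ADAM17, one of the sheddases, fell by 0.86, the furin protease FURIN by 0.56 and ADAM10, the main Notch sheddase, by 0.32 on the log2 scale. The call for PSEN2 was lost without the second untreated library, at 0.14, and also without any 4 h or 24 h library or the second 48 h library, at 0.22 each.

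The enzymes that add sugars to the receptors, which tune their response to Jagged and Delta ligands, held the largest fall of the list. LFNG, the lunatic fringe enzyme, measured 4.76 and 5.55 CPM untreated, 8.0 and 6.26 CPM at 4 h, 4.91 and 5.34 CPM at 24 h, and 0.170 and 0.687 CPM at 48 h. Only its 48 h libraries stood far from the others, at 5 and 20 counts, and the change was -3.58 ± 0.36. It was -2.90 without the first 48 h library and -4.88 without the second, and called in both. POGLUT1 fell by 1.14 and POFUT1 by 0.46 on the log2 scale, and RFNG was 0.58 higher. That made 3 of 4 tested lower and 1 higher, where 33.5% and 33.3% of all genes were.

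Among the nuclear partners of RBPJ, the 3 Mastermind coactivators were lower at 48 h. MAML3 measured 1.42 and 1.98 CPM untreated, 0.720 and 0.765 CPM at 4 h, 1.05 and 0.646 CPM at 24 h, and 0.170 and 0.309 CPM at 48 h, with every treated library below both untreated ones. Its change at 48 h was -2.81 ± 0.42, while MAML1 changed by -1.07, MAML2 by -0.65 and the acetyltransferase EP300 by -0.71. MAML2 was also lower at 4 h (-1.15 ± 0.12), at 7.48 and 8.35 CPM against 16.5 and 18.8 CPM untreated, and not at 24 h (16.9 and 17.9 CPM). SNW1, a splicing and transcription cofactor, was 0.63 higher at 48 h. That made 1 higher and 4 lower of 7 coactivators, where 33.3% and 33.5% of all genes were.

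Of 14 corepressor genes 3 were higher and 6 lower at 48 h, beside 33.3% and 33.5% of all genes. CIR1, which links RBPJ to histone deacetylases, measured 34.5 and 36.5 CPM untreated and 106 and 104 CPM at 48 h (1.57 ± 0.07). HDAC1, a histone deacetylase, measured 96.0 and 97.0 CPM untreated and 42.6 and 43.7 CPM at 48 h (-1.16 ± 0.06). L3MBTL3 changed by -1.51, SPEN by -1.12 and TLE4 by -1.04, and TLE1 by 0.76. The change of SPEN was -0.66 without the first 48 h library and -1.79 without the second, and called in both. Scaling by library totals alone made the corepressor count 2 higher and 10 lower, with 2742 higher and 6729 lower among the 14448 genes tested.

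Genes of endocytosis and turnover, which activate ligands or remove receptors, numbered 3 higher and 7 lower of 13 at 48 h. Of all genes, 33.3% were higher and 33.5% lower. Under scaling by library totals this class gave 1 and 8, with 2742 higher and 6729 lower among all genes. NEURL1B, a ubiquitin ligase that acts on ligands, measured 64.5 and 65.1 CPM untreated, 50.1 and 46.9 CPM at 4 h, 107 and 98.3 CPM at 24 h, and 104 and 93.0 CPM at 48 h. It was lower at 4 h (-0.42) and higher at 24 h (0.67) and 48 h (0.61). FBXW7, which marks the active receptor for breakdown, changed by -0.84 at 48 h, and by -0.48 without the first 48 h library and -1.29 without the second. MIB1, a ligase needed for ligand activity, was called at -0.42, but the call was lost in every fit with 1 library left out except that without the second 48 h library (-0.79). Without the first 48 h library it was -0.12 (adjusted p = 0.231, edgeR).

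**Figure D5:**
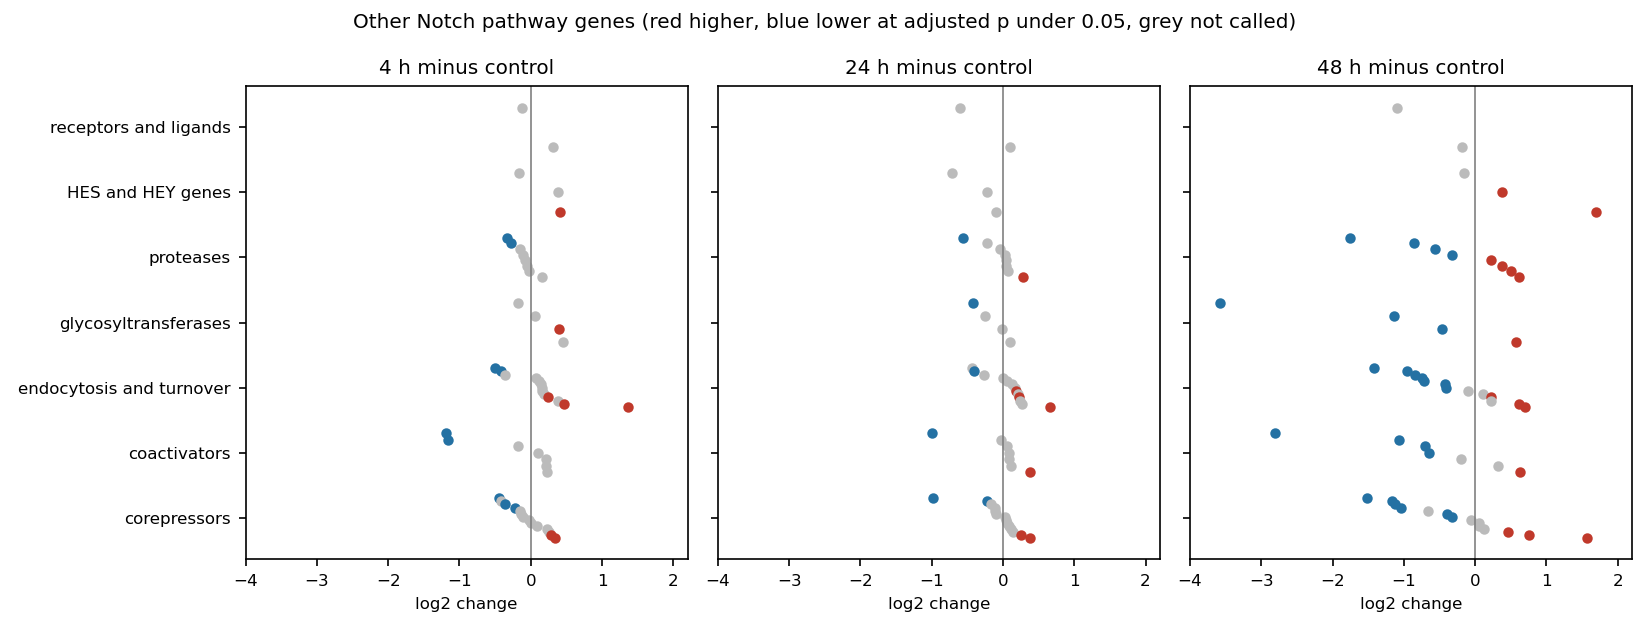
Log2 change from untreated cells (x axes) of the 51 tested pathway genes other than the members, 1 point per gene, by functional class (y axis) at 4, 24 and 48 h. Red and blue points were higher or lower at an adjusted p under 0.05; LFNG at -3.58 is the leftmost point at 48 h.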

How the data were processed

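RNA was sequenced from 8 U87MG libraries, 2 in each of 4 groups. The deposited files hold counts per gene symbol, whole numbers that the authors had not normalized. RNA extraction was on columns that included a DNase step, and an Illumina kit served for library preparation, per the labels' protocols. The tool was Bowtie and the builds hg19 and GRCh37, per the submitters' processing notes. Which program counted the reads, with which annotation and strand setting, is not given in the sources used here, so reads of overlapping genes cannot be told apart. Of the symbols, 28 had been turned into dates (0.191% to 0.224% of counts), and these stayed in the tables.

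The members and lists were chosen with earlier results of these data known. All genes were fitted together in edgeR 4.0.16 (R 4.3.3), with filterByExpr, TMM scaling, 1 coefficient per group and 4 residual degrees of freedom; the biological coefficient of variation was 7.15%. The SE of a log2 change is its size divided by the square root of F. HES1 ratios were fitted in limma 3.58.1 with a prior count of 2. The text names all 10 members, pathway genes from the list (values only for those called, otherwise levels or counts) and the 6 genes nearest to HES1. NEURL1 was matched through its older symbol, and 1 listed gene is not reported here. Merged exon lengths came from GENCODE. Alternatives were DESeq2 1.42.0, its size factors in edgeR, library totals, other filters, the groups compared only, replicate number as a block, a prior count of 0.5 and leaving out each library. Libraries of 1 group correlated at 0.992 to 0.995 over genes, and none repeated another. A chi-square per degree of freedom, near 1 for counting error alone, measured how far the 2 libraries of a group disagreed. It was largest at 48 h, at 22.0, against 15.5 at 4 h, 7.26 untreated and 4.69 at 24 h. The fits were tested on simulated counts.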

Additional observations from a re-analysis of the deposited data

Results flagged for a closer look

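Tests of the difference between the 24 h and 4 h effects, and between the 48 h and 24 h effects, picked out 6 members, each by the edgeR test of the later group against the earlier one. HES1 differed by -0.60 and then by 4.04 on the log2 scale, and HEY1 by -0.82 and then 1.75, so both fell and then rose. JAG1 differed by -0.85 and -0.52, NOTCH1 by -0.38 and -0.64, and NOTCH3 by -0.55 and -1.41, so these 3 fell in both steps. RBPJ differed by 0.37 and then -1.15, a rise followed by a fall. The calls that 1 library decides are named in the report beside these values. With 2 libraries a group, no library could be tested for standing apart within its own group. The 48 h pair disagreed most over all genes, and the 3 receptors there summed to 836 CPM in the first library and 1289 CPM in the second. Among the other tested members, JAG1 and RBPJ were also lower in the first 48 h library, and HES1, HEY1 and JAG2 higher. The cause of this difference between libraries was not tested.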

How the results depend on the processing

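Over all alternatives, the HES1 changes kept their sign, while scaling by library totals shifted the balance of calls toward lower at 4, 24 and 48 h. By library totals the pathway list at 24 h went from 7 higher and 6 lower to 3 and 9. All genes at 24 h went from 1866 higher and 1356 lower to 1359 and 1920 in that setting. They went from 2163 and 1964 to 1651 and 2667 at 4 h, and from 4814 and 4847 to 2742 and 6729 at 48 h. Of the main values and counts, 196 kept their side of the threshold or stayed within 1.5 times, 25 counts moved further, 8 became called and 2 were lost. Among single genes and differences from HES1, 1557 values stayed, 167 lost and 23 gained a call, and 20 changed sign. The cause was not tested.

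For HES1 and the count of members called, the 24 h comparison was the least settled of those with control. HES1 there passed the threshold with DESeq2 (0.62), with the groups compared only (0.63), with no filter (0.65) and with the replicate block (0.65), and ran from 0.44 to 0.82 with 1 library left out. The number of members called at 24 h went from 1 to 6 with the groups compared only. It was 3 with DESeq2, 3 with no filter and 3 with the replicate block. Calls over all genes moved as well, from 1866 higher and 1356 lower to 2639 and 2412 with the groups compared only. With the block they were 2169 and 1580, with DESeq2 1544 and 1394, and with no filter 1898 and 1305. With the pooled spread alone, members differing from HES1 at 24 h numbered 2, and 1 with a filter of 5 CPM in 2 libraries, which drops JAG2. With each ratio's own spread they numbered 0. At 4 h they numbered 4 with the pooled spread and 3 with the own spread. The HES1 change from 4 to 24 h ran from -0.82 to -0.29 with 1 library left out. The pathway list gave 27 calls at 4 h with the groups compared only and 5 to 26 with 1 library left out, beside 16, and at 24 h 3 to 16, beside 13.

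Signs changed for NOTCH2 most often. At 4 h it was -0.028 by library totals, and with 1 library left out it ran from -0.078 to 0.14. The same range was -0.11 to 0.059 at 24 h, -0.39 to 0.24 at 48 h, -0.17 to 0.052 from 4 to 24 h and -0.36 to 0.27 from 24 to 48 h. In that last comparison NOTCH2 was 0.038 with DESeq2, 0.028 with its size factors and 0.0051 with the groups compared only. JAG2 from 24 to 48 h ran from -0.27 to 0.14 with 1 library left out, JAG1 at 48 h from -0.59 to 0.033, and the 4 h difference of HES1 from JAG1 from -0.30 to 0.44. By library totals ITCH at 48 h was -0.054 and PSEN2 -0.061.

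Replicate numbers were not taken to pair the libraries. Deviations of same-numbered libraries correlated at 0.00771, 0.0450 and 0.135 between control and the 3 treated groups, which cannot show that they are unpaired. The replicate block raised the calls over all genes, at 24 h from 1866 higher and 1356 lower to 2169 and 1580. With the replicate block JAG2 at 48 h had an adjusted p of 0.0575. Low counts limit JAG2, HES4 and NRARP.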
